A study of Rattus norvegicus with 10 samples.

Results

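The genes described here mark successive steps of adult hippocampal neurogenesis. They are Sox2 and Nes of neural stem cells, Mki67 and Top2a of dividing cells, and Neurod1, Sox4, Sox11, Igfbpl1 and Dcx of committed progenitors and immature neurons. They were taken by name, not by a threshold on their values, and are 9 of the 17168 gene symbols in the tables. The left hippocampi of 10 female TgF-344AD rats, killed at 11 months of age, were profiled by RNA-seq. These rats carry transgenes that model Alzheimer's disease, and every animal had the same genotype, labelled Tg-AD, so no rat without the transgenes is part of the comparison. The untreated group (n = 5) was fed plain rodent chow. The other group (n = 5) was fed chow with 750 mg of RG2833 per kg for 6 months, from 5 months of age. RG2833 is an inhibitor of the histone deacetylases HDAC1 and HDAC3, enzymes that remove acetyl groups from histones. The comparison asks how long-term RG2833 in the diet bears on hippocampal gene expression.

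In the dentate gyrus of adult rodents, radial glia-like stem cells give rise to dividing intermediate progenitors. Their progeny pass through a neuroblast stage marked by doublecortin, the product of Dcx, and mature into granule neurons. The rate of this process falls with age, and its cells are a small part of the tissue. Several of the genes are also used by other cells. Sox2 is active in astrocytes, Nes in vessels and reactive glia, and Neurod1 in mature granule neurons, so a level in whole hippocampus is a sum over cell types. In such bulk tissue, fewer cells of a type and less RNA per cell cannot be told apart.

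All 9 genes were detected above the floor of 3 counts in 10 of 10 libraries, whose totals ranged from 8764266 to 11311673 estimated counts. In these libraries 3 counts correspond to between 0.268 and 0.342 deposited CPM, the authors' count per library size after TMM scaling. At a stricter floor of 10 counts, Top2a was detected in 4 libraries and Igfbpl1 in 6, and the other 7 genes in all 10. Of the 9, 8 passed the filter on low counts and entered the test across genes, and Top2a did not. Levels are given as deposited CPM in each animal. The difference is the log2 fold change of RG2833 over untreated ± its standard error, from edgeR's quasi-likelihood test on counts over 11791 genes. A gene was called at a Benjamini-Hochberg adjusted p under 0.05. By that rule 5.08% of all tested genes were called, 2.41% higher and 2.67% lower with RG2833, and in 7.2% the CPM of the groups did not overlap. At an unadjusted p under 0.05 the share was 24.5%, with 11.8% higher and 12.7% lower. DESeq2 called 4.95% higher and 5.25% lower, and limma-voom 2.49% and 2.16%. Among the neurogenesis genes 1 of 8 was called, Neurod1, which was also the only one of the 8 whose groups did not overlap. With 8 genes, 1 call is not read as a property of the set.

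**Figure D1:**
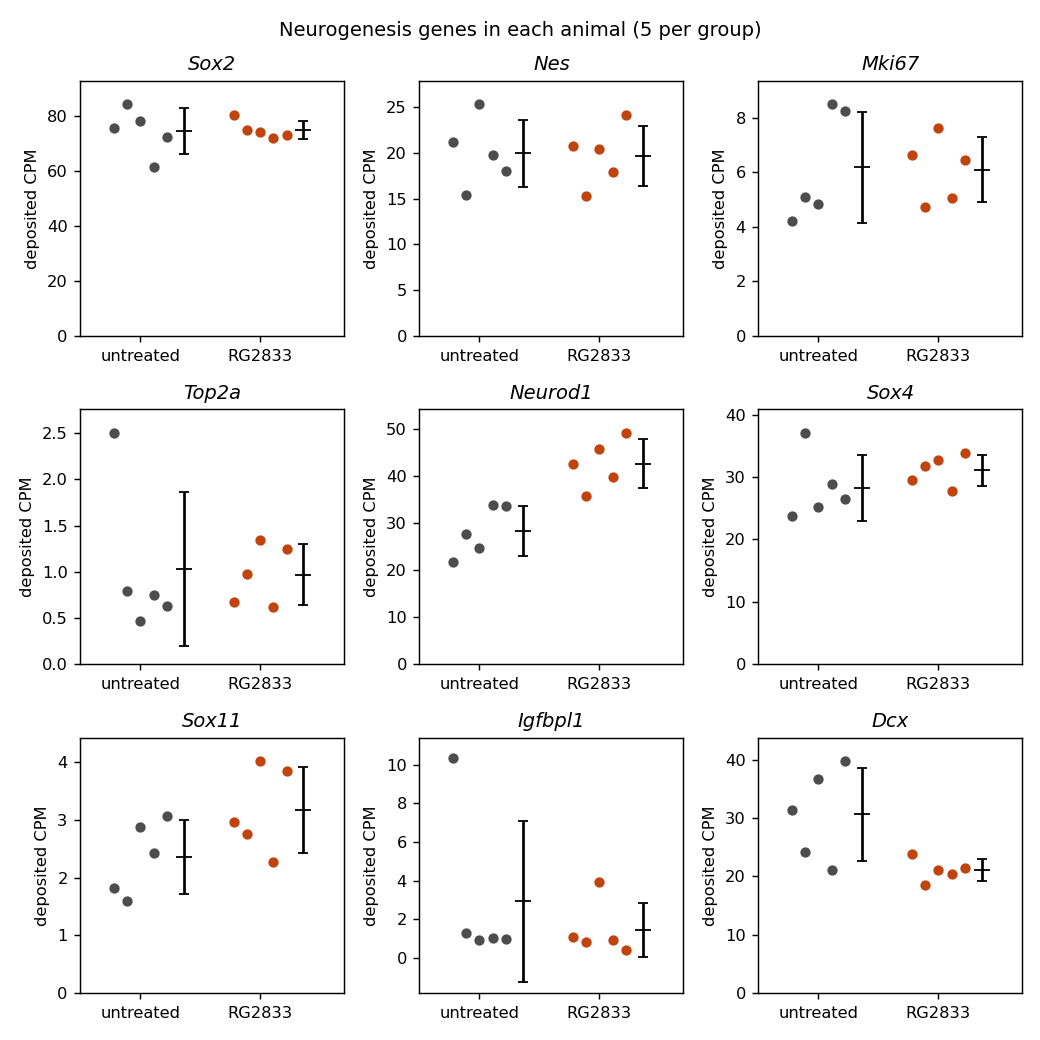
Deposited CPM of each of the 9 neurogenesis genes (1 panel per gene, linear axis) in the 5 untreated animals (grey) and the 5 RG2833 animals (orange). Points are animals and the black bar is the mean ± SD. In Neurod1 all RG2833 points lie above the untreated ones, in Dcx the RG2833 points lie close together, 3 of them at the low end of the untreated range and 2 below it, and single animals stand high in Igfbpl1 and Top2a.

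The libraries differed in ways that the labels do not record. Reads of ribosomal RNA, summed over LOC257642, Rn28s, Rn45s and Rn5-8s, made up 2.70% to 5.36% of counts in untreated animals and 1.13% to 1.96% in RG2833 animals, without overlap. The exact permutation p, two-sided, was 0.00794, which no arrangement of 5 against 5 can go under. The share separates the animals just as the treatment does, so the effect of either on any gene below cannot be told apart. Untreated replicate 1 held markers of the choroid plexus, the epithelium that secretes cerebrospinal fluid, with a summed level of 2492 CPM over 7 genes against 5.12 to 22.2 in the other untreated animals and 4.80 to 47.4 in RG2833 animals. Untreated replicate 4 resembled the RG2833 animals in several neuronal genes.

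Sox2 and Nes did not differ between the groups beyond the spread between animals. Sox2 encodes the transcription factor that maintains neural stem cells. It stood at 75.7, 84.4, 78.1, 61.7 and 72.5 CPM in untreated replicates 1 to 5, and at 80.5, 75.0, 74.4, 72.0 and 73.1 CPM in RG2833 replicates 1 to 5. The RG2833 animals all lay inside the untreated range. The means were 74.5 ± 8.37 CPM (SD, n = 5) and 75.0 ± 3.26 CPM (SD, n = 5), and the log2 fold change was 0.01 ± 0.08 (edgeR adjusted p = 0.941). The 95% interval of the Sox2 fold was 0.893 to 1.14.

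Nes encodes nestin, an intermediate filament of stem and progenitor cells. Its CPM was 21.2, 15.4, 25.3, 19.8 and 18.1 in untreated animals and 20.7, 15.2, 20.4, 18.0 and 24.1 in RG2833 animals, again in replicate order. The groups overlapped over nearly their whole ranges. The means of 19.9 ± 3.71 and 19.7 ± 3.31 CPM (SD, n = 5 in each group) gave a log2 fold change of -0.02 ± 0.15, with a 95% interval of -0.34 to 0.30 (edgeR adjusted p = 0.952).

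A list of 20 other genes of neural stem cells and radial glia was read from the same fit. Of these, 17 were in the table and 16 were tested, and edgeR called 0 in either direction. At an unadjusted p under 0.05 there was 1 higher and 1 lower, beside 11.8% and 12.7% of all tested genes. DESeq2 and limma-voom also called 0. The median log2 fold change of the 16 was -0.04, beside -0.0035 over all tested genes. Prom1, which encodes the stem cell surface protein prominin-1, averaged 26.9 ± 5.16 CPM untreated and 21.2 ± 1.72 CPM with RG2833, without overlap, a log2 fold change of -0.34 ± 0.12 (edgeR adjusted p = 0.113). Notch2, a Notch receptor, lay the other way at 0.48 ± 0.17 (edgeR adjusted p = 0.116). Fabp7, a fatty acid binding protein of radial glia, differed by -0.11 ± 0.10 (edgeR adjusted p = 0.547). Of the 10 genes listed for intermediate progenitors, 6 were in the table, 4 were tested and 0 were called by edgeR, DESeq2 or limma-voom. In edgeR 0 had an unadjusted p under 0.05, beside 24.5% of all tested genes. Among the 4, the RNA-binding protein gene Elavl2 had a log2 fold change of -0.05 ± 0.21 (edgeR adjusted p = 0.902).

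Of the proliferation genes, Mki67 passed the filter on low counts and Top2a did not. Mki67 encodes Ki-67, a nuclear protein present in cycling cells. Its level was 4.21, 5.09, 4.84, 8.49 and 8.24 CPM in untreated animals and 6.62, 4.73, 7.63, 5.06 and 6.44 CPM in RG2833 animals, from 37 to 91 counts per library. The RG2833 values fell between the lowest and the highest untreated values. The means, 6.17 ± 2.03 and 6.09 ± 1.19 CPM (SD, n = 5 in each group), gave a log2 fold change of -0.02 ± 0.22 (edgeR adjusted p = 0.962). Its 95% interval was -0.50 to 0.46.

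Top2a encodes DNA topoisomerase II alpha, which untangles chromosomes in dividing cells. It had 22, 8, 5, 8 and 6 counts in untreated animals and 7, 11, 13, 6 and 12 counts in RG2833 animals. As CPM these were 2.50, 0.798, 0.465, 0.747 and 0.634, then 0.671, 0.981, 1.34, 0.619 and 1.25. Untreated replicate 1 was the highest of all 10, and the rest of the groups overlapped. A count of 22 has an exact Poisson 95% interval of 13.8 to 33.3 and a count of 5 one of 1.62 to 11.7, and such intervals cover counting error only. The difference in mean log2(CPM + 1) was 0.02 (two-sided exact permutation test, p = 0.952). Without untreated replicate 1 it was 0.24, and without untreated replicate 3 it was -0.079, so its size and sign depend on single animals. No difference in Top2a was detected at these counts.

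Mki67 and Top2a were also compared in the sequence before their start sites, since both are genes of the cell cycle. Windows of 300 bases, 250 before the start and 50 from it on, were taken from RefSeq on the rat build GRCr8, and 8 of the 9 genes had one. The counts behind the levels were made on another build, rn6 per the submitters' processing notes. Capitals mark 3 motifs on either strand, so that their reverse complements are in capitals too. The first is CCAAT, the box bound by the factor NF-Y. The second is GGGCGG, the core of the GC box bound by Sp1. The third is TTTGAA, the core of the cell cycle homology element. The Mki67 window is chr1:199952544-199952843, minus strand, and the Top2a window is chr10:84473044-84473343, minus strand.
Mki67: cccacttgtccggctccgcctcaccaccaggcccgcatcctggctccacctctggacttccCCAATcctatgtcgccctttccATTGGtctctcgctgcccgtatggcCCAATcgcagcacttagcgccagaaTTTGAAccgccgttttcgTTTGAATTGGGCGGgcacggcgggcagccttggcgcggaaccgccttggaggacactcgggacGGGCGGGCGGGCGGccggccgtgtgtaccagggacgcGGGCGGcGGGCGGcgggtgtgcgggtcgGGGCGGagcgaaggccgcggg
Top2a: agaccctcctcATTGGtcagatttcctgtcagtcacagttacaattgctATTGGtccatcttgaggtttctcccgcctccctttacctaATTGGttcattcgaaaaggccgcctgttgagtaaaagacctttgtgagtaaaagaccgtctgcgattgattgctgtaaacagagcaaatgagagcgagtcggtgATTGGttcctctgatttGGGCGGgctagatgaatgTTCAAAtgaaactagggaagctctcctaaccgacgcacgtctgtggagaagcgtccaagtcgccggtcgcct
Each window held 4 CCAAT matches, against 37.5% of 33469 rat windows with at least 1 and 0.675% with 4 or more. Mki67 had 7 GGGCGG and 2 TTTGAA matches and Top2a had 1 of each, where 33.1% and 18.3% of all windows hold at least 1. In Mki67 a match to each of the 3 motifs joins into 1 run of capitals, where they overlap. GC content was 69.7% in Mki67 and 48.7% in Top2a, beside a median of 51.7% over all windows. These are matches of letters, and binding was not measured here.

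A list of 32 other cell cycle genes had 29 in the table and 21 tested. None was called by edgeR (0 of 21), while 1 gene was higher and 2 were lower at an unadjusted p under 0.05. Over all tested genes 11.8% were higher and 12.7% lower at that threshold. DESeq2 called 1 lower, beside 5.25% of all genes, and limma-voom called 0. EdgeR also called 1 lower with library totals only, at a mean count of at least 50 and without untreated replicate 5. Over all genes these fits called 367, 355 and 518 lower, beside 315 in the main fit. The mean was lower with RG2833 in 14 of the 21, and the median log2 fold change was -0.13 beside -0.0035 over all tested genes. Pcna, the sliding clamp of DNA replication, averaged 27.5 ± 2.74 CPM untreated and 22.2 ± 0.566 CPM with RG2833, without overlap, a log2 fold change of -0.31 ± 0.09 (edgeR adjusted p = 0.0579). Tpx2, a spindle assembly factor, had a log2 fold change of 0.51 ± 0.23 (edgeR adjusted p = 0.204), and Kif20a, a mitotic kinesin, one of -0.26 ± 0.11, without overlap (edgeR adjusted p = 0.172). The replication helicase subunit gene Mcm4 lay at 0.21 ± 0.11 (edgeR adjusted p = 0.251). The 8 listed genes in the table that were not tested did not pass the filter on low counts, and they include genes of mitosis.

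Neurod1 rose with RG2833. It encodes a basic helix-loop-helix transcription factor that drives the differentiation and survival of new granule neurons. Its level was 21.9, 27.7, 24.8, 33.8 and 33.7 CPM in untreated animals and 42.6, 35.8, 45.8, 39.8 and 49.2 CPM in RG2833 animals. The lowest RG2833 animal, replicate 2, lay above the highest untreated animals, replicates 4 and 5, so the groups did not overlap. The mean went from 28.4 ± 5.33 to 42.6 ± 5.21 CPM (SD, n = 5 each). The log2 fold change was 0.59 ± 0.13, a 1.50-fold rise with a 95% interval of 1.24 to 1.83 (edgeR adjusted p = 0.0288).

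The direction of the Neurod1 difference held in each of 25 alternative fits, and the call held in 12. Leaving out 1 animal at a time gave log2 fold changes from 0.51 to 0.66. The call held only without untreated replicate 4, untreated replicate 5 or RG2833 replicate 2, and was lost without any of the other 7 animals, with edgeR adjusted p from 0.00863 to 0.0845 over the 10 fits. Adjusted for the ribosomal share, the log2 fold change was 0.26 (edgeR adjusted p = 1), a fit in which 2 genes of the whole table were called.

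**Figure D2:**
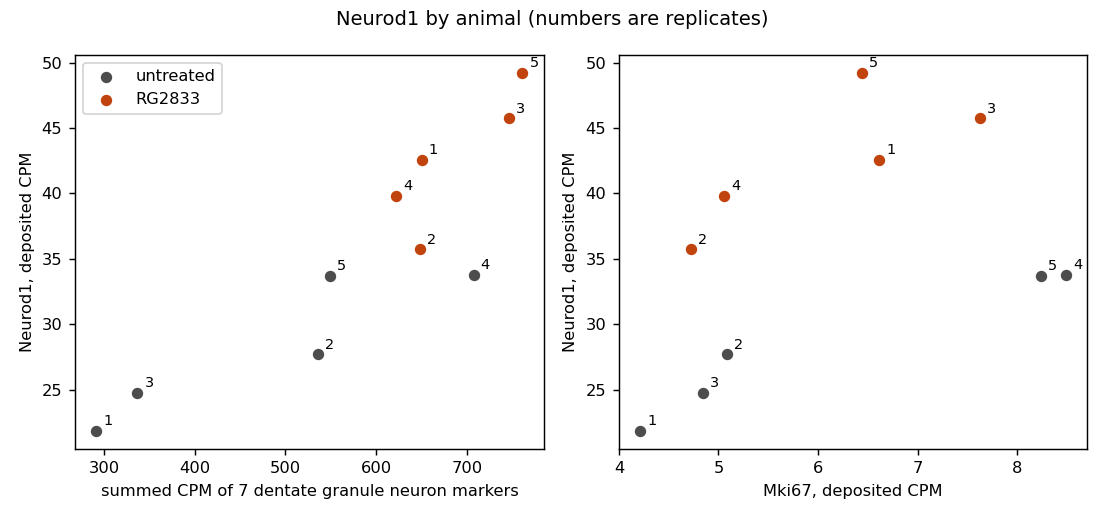
Neurod1 in deposited CPM for each animal (untreated grey, RG2833 orange), plotted against the summed CPM of 7 dentate granule neuron markers (left) and against Mki67 CPM (right), with replicate numbers at the points. Untreated replicate 4, with 33.8 CPM of Neurod1, has a marker sum of 707 CPM inside the RG2833 range of 622 to 761, and on the right RG2833 replicate 5 has the highest Neurod1, 49.2 CPM, at a Mki67 of 6.44 CPM, below RG2833 replicates 1 and 3.

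Mature granule neurons also express Neurod1, and most of their markers were higher in the mean with RG2833. Of 9 dentate granule neuron markers 7 were in the table, with Tdo2 at 0 in every library. Their summed level was 292, 536, 337, 707 and 549 CPM in untreated animals and 650, 648, 746, 622 and 761 CPM in RG2833 animals. Untreated replicates 1 and 3 were the lowest, and untreated replicate 4 lay inside the RG2833 range. Of the 6 tested, edgeR, DESeq2 and limma-voom called 0, and 5 had a higher mean. In edgeR 1 was higher at an unadjusted p under 0.05, beside 11.8% of all tested genes. Higher means were not particular to granule neurons, as 6 of 7 tested pyramidal neuron markers also had one. The median log2 fold change was 0.53 for the pyramidal and 0.49 for the dentate markers. With the mean marker score as a covariate, the log2 fold change of Neurod1 was 0.39 (edgeR adjusted p = 0.114). The part of the mature cells in the Neurod1 difference was not tested beyond this fit. A wider list of 18 mature granule cell genes had 16 in the table and 14 tested, and edgeR, DESeq2 and limma-voom each called 0. At an unadjusted p under 0.05 in edgeR 1 was higher and 0 were lower, beside 11.8% and 12.7% of all tested genes. Without untreated replicate 4 edgeR called 1 higher, beside 6.84% of all genes tested in that fit. The mean was higher in 12 of the 14. Rasgrp1, a Ras activator abundant in granule neurons, averaged 202 ± 103 CPM untreated and 363 ± 61.6 CPM with RG2833, a log2 fold change of 0.85 ± 0.28 (edgeR adjusted p = 0.0876). C1ql2, a synaptic protein of mossy fibres, had 0.52 ± 0.31 (edgeR adjusted p = 0.316), while Calb1, the calcium buffer calbindin that appears late in granule cell maturation, had -0.57 ± 0.26 (edgeR adjusted p = 0.205).

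The window before the Neurod1 start is shown because Neurod1 is the gene called, and the same motifs are in capitals (GRCr8, chr3:84770405-84770704, minus strand).
Neurod1: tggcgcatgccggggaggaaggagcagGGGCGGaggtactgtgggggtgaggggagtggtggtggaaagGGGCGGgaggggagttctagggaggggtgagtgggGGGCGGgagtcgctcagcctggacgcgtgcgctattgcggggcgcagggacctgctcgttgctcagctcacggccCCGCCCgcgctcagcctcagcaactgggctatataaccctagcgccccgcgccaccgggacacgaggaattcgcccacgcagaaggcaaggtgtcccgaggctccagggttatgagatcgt
It held 4 GGGCGG matches, a number reached by 4.64% of all windows, with 0 matches to the other 2 motifs, at a GC content of 68.0%. CANNTG, the E-box that basic helix-loop-helix factors bind, matched 1 time here and at least 1 time in 72.1% of all windows. No E-box match was printed in capitals.

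Sox4 and Sox11 encode related SOXC transcription factors that switch on neuronal genes in newborn neurons. Sox4 stood at 23.7, 37.1, 25.2, 28.8 and 26.5 CPM in untreated animals and 29.4, 31.7, 32.7, 27.8 and 33.9 CPM in RG2833 animals. Untreated replicate 2 was the highest of all 10, and the RG2833 animals lay within the untreated range. The means of 28.3 ± 5.28 and 31.1 ± 2.47 CPM (SD, n = 5 in each group) gave a log2 fold change of 0.14 ± 0.12, with a 95% interval of -0.12 to 0.40 (edgeR adjusted p = 0.496).

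Sox11 is the scarcer of the pair in counts, with 16 to 39 per library. It stood at 1.82, 1.60, 2.89, 2.43 and 3.06 CPM in untreated animals and 2.97, 2.76, 4.02, 2.27 and 3.84 CPM in RG2833 animals. RG2833 replicates 3 and 5 exceeded every untreated animal, and the other 3 overlapped with them. The mean was 2.36 ± 0.643 CPM untreated and 3.17 ± 0.740 CPM with RG2833, a log2 fold change of 0.42 ± 0.24 (edgeR adjusted p = 0.287). Its 95% interval, -0.09 to 0.93, includes 0.

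Igfbpl1 encodes a protein related to the insulin-like growth factor binding proteins and is used as a marker of neuroblasts. Its CPM was 10.4, 1.30, 0.931, 1.03 and 0.951 in untreated animals and 1.05, 0.803, 3.92, 0.929 and 0.416 in RG2833 animals. Only untreated replicate 1, with 91 counts, and RG2833 replicate 3, with 38 counts, stood well above the others, which had 4 to 13 counts. The exact Poisson 95% intervals of these counts, 73.3 to 111.7 and 26.9 to 52.2, lie clear of the rest. The log2 fold change of -1.0 ± 0.79 had a 95% interval of -2.71 to 0.72 (edgeR adjusted p = 0.462). It was 0.43 without untreated replicate 1 (edgeR adjusted p = 0.692), -1.80 without RG2833 replicate 3 and -0.38 without both (edgeR adjusted p = 0.592), so no direction is given for Igfbpl1.

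The same 2 animals were high in many, but not all, marker genes of the ventricular lining. Of the 12 choroid plexus and ependymal markers in the table, untreated replicate 1 was the highest of its group in 11, all but Rarres2, and RG2833 replicate 3 was the highest of its group in 8. RG2833 replicate 3 was not the highest of its group in Kl, Clic6, Rarres2 and Dynlrb2. Ttr, the transthyretin of choroid plexus, was 2369 CPM in untreated replicate 1 against 3.82 to 14.8 in the other untreated animals, and 38.3 in RG2833 replicate 3 against 3.84 to 16.3 in the other RG2833 animals. Foxj1, the master regulator of motile cilia, was 13.8 CPM in untreated replicate 1 against 2.79 to 4.44, and 9.38 in RG2833 replicate 3 against 4.46 to 7.12. The 5 ependymal markers in the table summed to 16.8 to 39.5 CPM in untreated animals and 19.1 to 31.3 CPM in RG2833 animals, with untreated replicate 1 and RG2833 replicate 3 the highest of their groups and Tmem212 at 0 in untreated replicate 3. Among choroid plexus markers Kcnj13 was at 0 in untreated replicate 4 and Folr1 in RG2833 replicate 1. With the choroid plexus marker score as a covariate, the log2 fold change of Igfbpl1 was 0.21 ± 0.39 (edgeR adjusted p = 0.794). The part of these cells in the Igfbpl1 values was not tested beyond fits with such a covariate. For Top2a it was not tested.

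**Figure D3:**
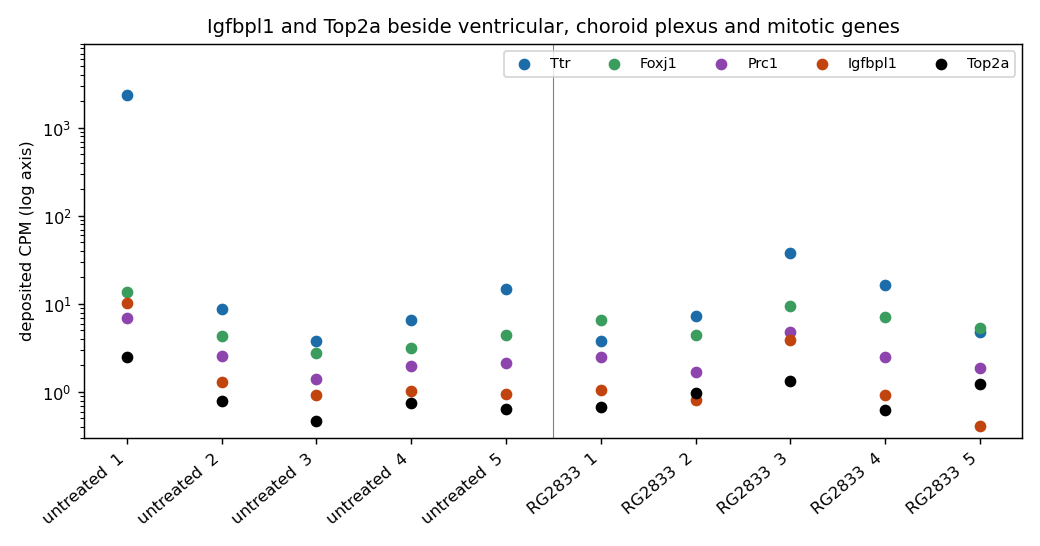
Deposited CPM on a log axis of Igfbpl1 and Top2a beside Ttr (choroid plexus), Foxj1 (motile cilia) and Prc1 (cell division) in each of the 10 animals, 1 point per gene and animal. Untreated replicate 1 is the highest of the 10 in all 5 genes, and RG2833 replicate 3 is the next highest in each. Prc1 was picked by its correlation with Igfbpl1, so its likeness to Igfbpl1 follows from that choice.

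Dcx encodes doublecortin, a microtubule-associated protein of migrating neuroblasts and the usual marker of new neurons. Its level was 31.3, 24.2, 36.7, 21.0 and 39.7 CPM in untreated animals and 23.9, 18.5, 21.0, 20.3 and 21.4 CPM in RG2833 animals. The RG2833 animals lay close together, and 4 of the 5 untreated animals lay above all of them. Untreated replicate 4 lay inside the RG2833 range, so the groups overlapped. The mean was 30.6 ± 7.96 CPM untreated and 21.0 ± 1.93 CPM with RG2833 (SD, n = 5 each). The log2 fold change was -0.54 ± 0.16, a fold of 0.689 with a 95% interval of 0.541 to 0.877, and it did not pass the threshold over all genes (edgeR adjusted p = 0.0702).

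The sign of the Dcx difference was the same in every alternative fit, and 2 of 25 passed the threshold. DESeq2's Wald test gave -0.54 (DESeq2 adjusted p = 0.0286), and edgeR without untreated replicate 4 gave -0.65 (adjusted p = 0.00998). Leaving out each of the other 9 animals gave an edgeR adjusted p of at most 0.156 and no call. The Dcx window (GRCr8, chrX:112304112-112304411, minus strand) is shown beside that of Neurod1, since these genes had the smallest p-values of the 8 and opposite signs.
Dcx: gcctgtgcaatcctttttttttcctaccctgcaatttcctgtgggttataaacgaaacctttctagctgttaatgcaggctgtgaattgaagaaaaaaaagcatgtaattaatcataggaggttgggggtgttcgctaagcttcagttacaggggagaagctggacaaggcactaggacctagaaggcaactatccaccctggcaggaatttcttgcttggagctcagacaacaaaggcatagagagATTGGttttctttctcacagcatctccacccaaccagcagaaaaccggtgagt
It held 1 CCAAT match, which begins 3 bases before the start and runs across it. There were 0 matches to the other motifs, the E-box included, at a GC content of 45.0%. The table gives 1 window per gene, which need not hold the start used in hippocampus.

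**Figure D4:**
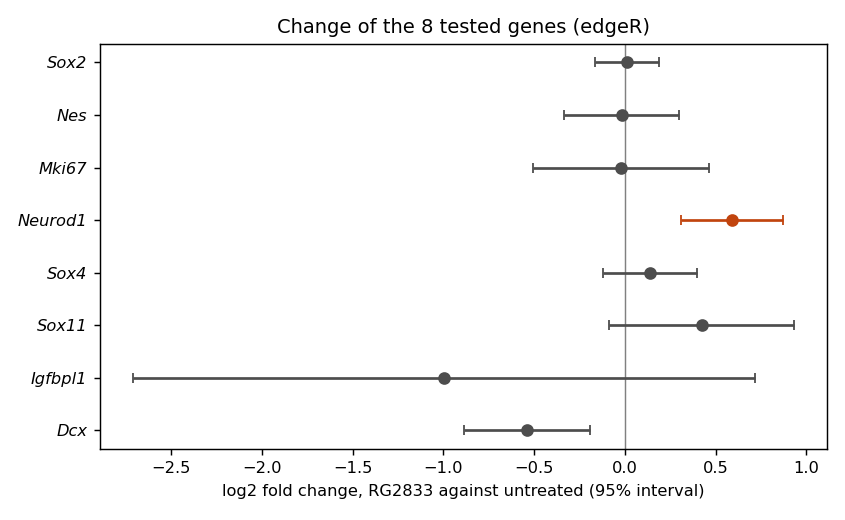
Log2 fold change of RG2833 over untreated with its 95% interval for the 8 neurogenesis genes tested by edgeR, orange where the adjusted p is under 0.05 and grey otherwise. Only the interval of Neurod1 belongs to a called gene, that of Dcx also lies clear of 0 before adjustment, and that of Igfbpl1 is the widest, from -2.71 to 0.72.

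Further genes of neuroblasts and immature neurons lay on both sides of 0. Of 33 listed, 30 were in the table and tested, and edgeR called 0 higher and 2 lower, Calb2 and Marcksl1. This is 2 of 30 beside 2.67% of all tested genes. At an unadjusted p under 0.05, 6 were higher and 5 were lower, beside 11.8% and 12.7% of all tested genes, and their median log2 fold change was 0.11 beside -0.0035 over all tested genes. Calb2 encodes calretinin, a calcium-binding protein of young granule cells, of some interneurons and of Cajal-Retzius cells. It was 24.6, 15.7, 16.8, 7.56 and 21.9 CPM in untreated animals and 9.30, 8.11, 8.76, 8.26 and 6.23 CPM in RG2833 animals. Untreated replicate 4 lay inside the RG2833 range, as in Dcx. The mean fell from 17.3 ± 6.56 to 8.13 ± 1.16 CPM (SD, n = 5 each), and the log2 fold change was -1.08 ± 0.25 (edgeR adjusted p = 0.0354). Of the other Cajal-Retzius markers, 4 of 6 were in the table, with Lhx1 at 0 in 8 libraries and Lhx5 at 0 in 6. Reln had a log2 fold change of -0.10 ± 0.19 (edgeR adjusted p = 0.774) and Ebf3 one of -0.48 ± 0.33 (edgeR adjusted p = 0.391). The list with Calb2 included, most of it Reln, summed to 62.6 to 153.7 CPM untreated and 75.9 to 95.9 CPM with RG2833.

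Marcksl1, an actin-binding substrate of protein kinase C in growing neurites, fell from 115.9 ± 24.9 to 78.2 ± 5.15 CPM (SD, n = 5 each) without overlap, a log2 fold change of -0.57 ± 0.13 (edgeR adjusted p = 0.0297). Neurod2, a relative of Neurod1 in maturing excitatory neurons, averaged 106.7 ± 47.4 and 189.7 ± 29.4 CPM, a log2 fold change of 0.83 ± 0.23 (edgeR adjusted p = 0.0550). The genes at the highest CPM on the list did not pass the test. Tubb3, the neuronal beta tubulin, differed by -0.02 ± 0.12 (edgeR adjusted p = 0.944), Stmn2 by -0.13 ± 0.09 (edgeR adjusted p = 0.374) and Basp1 by 0.15 ± 0.12 (edgeR adjusted p = 0.468). DESeq2 called 3 higher and 5 lower, limma-voom 1 and 1, and edgeR without untreated replicate 4 called 5 and 5. Over all tested genes that last fit called 6.84% higher and 6.3% lower, against 4.95% and 5.25% for DESeq2 and 2.49% and 2.16% for limma-voom. The Calb2 call held in 2 of the 10 fits that left out 1 animal and the Marcksl1 call in 4, with the same sign in every one. Without untreated replicate 1 both calls were lost, with Calb2 at -0.92 (edgeR adjusted p = 0.0734) and Marcksl1 at an edgeR adjusted p of 0.0621. Without untreated replicate 4 both held, with Calb2 at -1.27 (edgeR adjusted p = 0.00103) and Marcksl1 at -0.64 (edgeR adjusted p = 0.00561). Neither was called with the replicate block, with the ribosomal RNA share, choroid plexus score or dentate granule neuron score as a covariate, or with 1 surrogate variable. In those 5 fits the edgeR adjusted p ranged from 0.0618 to 1 for Calb2 and from 0.0563 to 1 for Marcksl1. Calb2 missed the threshold with limma-voom (limma adjusted p = 0.0773).

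**Figure D5:**
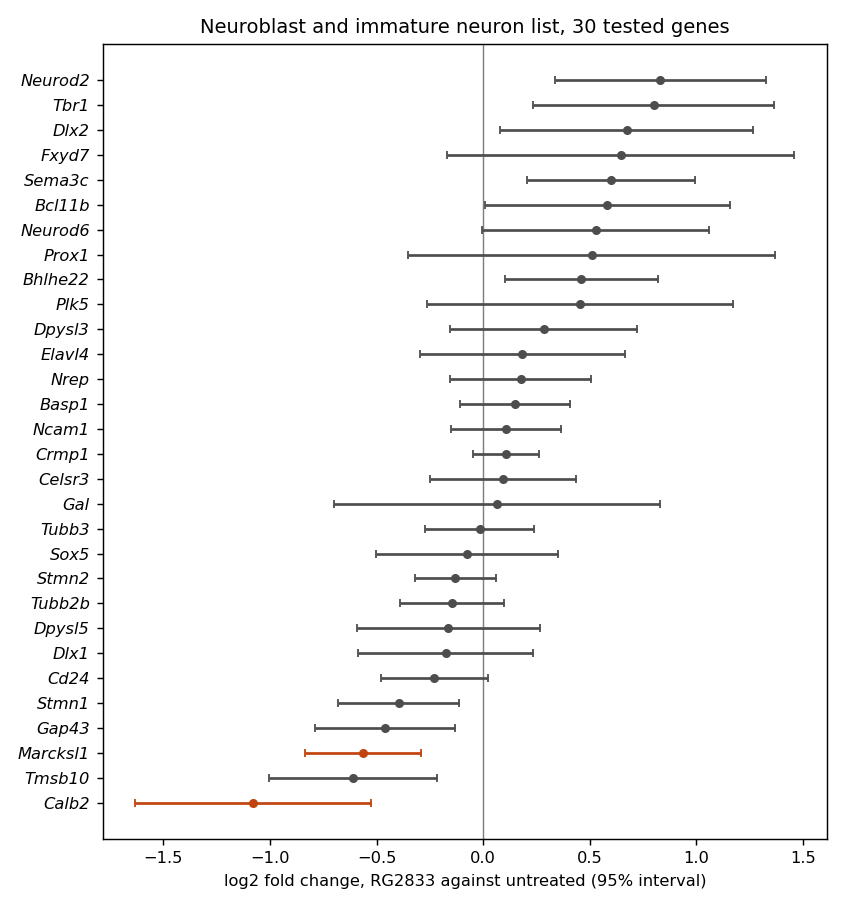
Log2 fold change of RG2833 over untreated for the 30 tested genes of the neuroblast and immature neuron list, with 95% intervals, orange where edgeR's adjusted p is under 0.05. The genes lie on both sides of 0, with 18 higher and 12 lower in the mean, and Calb2 and Marcksl1 are the 2 called.

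Among 36 signalling factors and regulators of the neurogenic niche, 35 were in the table and 32 were tested. Of these, 4 were called higher and 0 lower, beside 2.41% and 2.67% of all tested genes, and 8 were higher and 0 lower at an unadjusted p under 0.05, beside 11.8% and 12.7%. DESeq2 and limma-voom each called 4 higher, beside 4.95% and 2.49% of all genes. Fgfr1, a receptor for fibroblast growth factors, rose from 126 ± 28.5 to 214 ± 41.3 CPM (SD, n = 5 each), and the log2 fold change was 0.77 ± 0.17 (edgeR adjusted p = 0.0288). Tcf4, a basic helix-loop-helix partner of proneural factors, rose from 86.9 ± 19.3 to 127.9 ± 11.9 CPM, by 0.56 ± 0.13 (edgeR adjusted p = 0.0367). Dab1, the adaptor that relays the reelin signal, rose from 32.4 ± 4.18 to 42.3 ± 3.43 CPM, by 0.39 ± 0.10 (edgeR adjusted p = 0.0445). In these 3 genes the groups did not overlap.

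Bmp6, a bone morphogenetic protein, rose from 12.2 ± 1.57 to 17.5 ± 2.49 CPM with overlap, by 0.52 ± 0.13 (edgeR adjusted p = 0.0408). Ntrk2, the receptor of BDNF, had a log2 fold change that rounds to 0.00 ± 0.11 (edgeR adjusted p = 0.998). The calls depended on the fit and on single animals. The number called was 2 with library totals only, where Dab1 (edgeR adjusted p = 0.0571) and Bmp6 (edgeR adjusted p = 0.0535) were lost, and 2 with the replicate block, where the same genes were lost (edgeR adjusted p 0.0578 and 0.0783). Of the 10 fits that left out 1 animal, the call held in 3 for Fgfr1, 2 for Tcf4, 2 for Dab1 and 3 for Bmp6, with adjusted p up to 0.118 in edgeR. The number called higher on the list went from 0 to 6. The 6 came without untreated replicate 4, where 6.84% of all tested genes were called higher. With untreated replicate 1 and RG2833 replicate 3 both left out, 0 of the list were called. The same 0 was found with the ribosomal RNA share, choroid plexus score or dentate granule neuron score as a covariate and with 1 surrogate variable. Fgfr1 was 0.15 when adjusted for the ribosomal share (edgeR adjusted p = 1).

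Within groups, the neurogenesis genes did not vary as a block from animal to animal. Correlations of log2 CPM were taken over the 10 animals after each group's mean was removed, for the 28 pairs of the 8 tested genes. The pair Mki67 and Neurod1 had Pearson's r of 0.923 (exact permutation within groups, p = 0.00194, adjusted over 28 pairs 0.0544). Spearman's rho was 0.952 (exact permutation p = 0.00111, adjusted 0.0311). Without untreated replicates 4 and 5, the animals farthest from the median of Mki67, r was 0.864, and it ranged from 0.900 to 0.959 when each animal was left out. With the groups pooled r was 0.549. In the other 27 pairs r lay between -0.546 and 0.633, with a smallest exact permutation p of 0.0856 (adjusted 0.755). Neurod1 and Dcx, whose differences had opposite signs, had r of -0.08 within groups, and Dcx and Sox11 had r of 0.465 (exact permutation p = 0.250).

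The genes most like each member were read from the same group-centred values over 10 animals, as a description chosen by rank among 11791 genes. They share libraries and depth with the member. Nearest to Neurod1 was RGD1559904 with r of 0.994, followed by Arid5b at 0.973 and Pde10a at 0.968. For Dcx they were Mapk8 at 0.962, Htr7 at 0.952 and Mgat4c at 0.952, and for Mki67 Chd8 at 0.967, Rab3d at 0.951 and Yy1 at 0.944. Igfbpl1 was most like Nfyb at 0.962 and then Prc1, a midzone protein of dividing cells, at 0.953. Prc1 was 6.95 CPM in untreated replicate 1 against 1.40 to 2.59 in the other untreated animals, and 4.74 in RG2833 replicate 3 against 1.69 to 2.49. These are the same 2 animals as in Igfbpl1, which follows from picking Prc1 by its correlation with Igfbpl1. Sox2 was most like Lpin3 at 0.958, Sox4 like Tacc1 at 0.958, Sox11 like Arhgap21 at 0.932 and Nes like Plscr1 at 0.909.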

How the data were processed

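Both tables hold 17168 gene symbols for 10 animals, named by title in the column headings. The deposited estimated counts (RSEM expected counts) carry 2 decimals and no normalization. The deposited CPM table is a signal that the authors scaled by TMM, which sets library sizes by a trimmed mean of ratios, and its columns sum to 967165 to 1036329. It matched the rounded counts, within 0.01 counts, at 17145 to 17160 genes per animal. The submitters' processing notes name Bowtie2 2.1.0, RSEM 1.2.15, bcl2fastq 2.17, edgeR and the build rn6, without their roles. Per the labels' protocols the mRNA libraries were strand-specific.

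Estimated counts were rounded, filtered with filterByExpr by group (minimum count 10) and scaled by TMM, and 11791 genes were tested in R 4.3.3 with edgeR 4.0.16 (quasi-likelihood, no covariate, Benjamini-Hochberg over all genes). Of these 599 were called, 284 higher and 315 lower, and 2887 had an unadjusted p under 0.05. The standard error was derived from the estimate and its F statistic. Correlations used log2 CPM with a prior count of 2. Top2a, which did not pass the filter, was tested by an exact permutation test with a pseudocount of 1. Alternatives used DESeq2 1.42.0 (adjusted p given as NA was kept so), limma 3.58.1 and sva 3.50.0. The test was checked on simulated counts.

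Genes named are the 9 neurogenesis genes, listed genes that were called, per list up to 3 with the highest CPM and 3 with the smallest p, and the 3 nearest by correlation. No value threshold chose the 9 genes, but they and the lists were chosen with earlier results of these data known. Both groups carry replicate numbers 1 to 5, but the numbers name different animals, so no pairing was used. Within groups no pair of libraries agreed within sampling noise, as 1 library deposited as 2 would (chi-square per degree of freedom 4.74 to 37.9), and each was counted as the animal its label names. Total counts, 8764266 to 11311673, did not separate the groups (two-sided exact permutation test, p = 0.659). No transcript lengths were used, so a rank of genes by CPM or counts is not a rank by number of transcripts.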

Additional observations from a re-analysis of the deposited data

Results flagged for a closer look

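Of 108 groups of 5 animals (54 measures in each group), 11 had 1 animal set far from the other 4. Distance was taken as the gap to the nearest animal as a share of the whole range, with a limit of 0.71. For independent normal values that limit flags about 1 in 20, or 5.4. The measures overlap, as Ttr is part of the choroid plexus sum, and some genes were picked from these data. The 11 is therefore not compared with chance. Of the 11, 7 were in untreated replicate 1 and 3 concerned neurogenesis genes. Igfbpl1 stood high in untreated replicate 1 (10.4 CPM against 0.931 to 1.30, gap 0.961) and in RG2833 replicate 3 (3.92 CPM against 0.416 to 1.05, gap 0.817). Top2a stood high in untreated replicate 1 (2.50 CPM against 0.465 to 0.798, gap 0.837). Prc1, picked by its correlation with Igfbpl1 and so not a separate result, was high in the same animals. These were untreated replicate 1 (6.95 CPM against 1.40 to 2.59, gap 0.784) and RG2833 replicate 3 (4.74 CPM against 1.69 to 2.49, gap 0.738).

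In untreated replicate 1 the choroid plexus marker sum (2492 CPM against 5.12 to 22.2, gap 0.993) and its gene Ttr (2369 CPM against 3.82 to 14.8, gap 0.995) stood highest. So did the ependymal genes Foxj1 (13.8 CPM against 2.79 to 4.44, gap 0.85) and Tmem212 (4.44 CPM against 0 to 0.933, gap 0.79). Neurod2 was high in untreated replicate 4 (189 CPM against 69.4 to 97.7, gap 0.764), at the mean of the RG2833 animals, 189.7 CPM. Prom1 was high in untreated replicate 3 (35.8 CPM against 23.5 to 26.5, gap 0.756). Causes were not tested.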

How the results depend on the processing

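Genes called, 599 in all, numbered 1259 with DESeq2, 1466 at an adjusted p under 0.1, 385 with an ependyma marker covariate, 227 with a choroid plexus marker covariate, 49 with a dentate granule neuron marker covariate, 49 with 1 surrogate variable and 2 after adjustment for the ribosomal share. It was 15 without untreated animal 1 and RG2833 animal 3, which leaves 4 animals a group, and 98 to 1556 with each animal left out. The ependyma covariate and the fit without both animals were chosen after seeing the data. Neurogenesis genes called, 1, were 2 with DESeq2 and at an adjusted p under 0.1 (Dcx and Neurod1), 0 to 2 with each animal left out, and 0 with the ribosomal, choroid or dentate covariate, 1 surrogate variable or both animals left out. Neurod1 was then 0.26, 0.55, 0.39, 0.35 and 0.48 on the log2 scale (edgeR adjusted p 1, 0.0532, 0.114, 0.143 and 0.131), and 0.51 to 0.66 with each animal left out. Dcx was -0.54 and past the threshold with DESeq2, and -0.65 to -0.43 with each animal left out.

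With the replicate block 180 genes and 0 neurogenesis genes were called, with Neurod1 at 0.60 (edgeR adjusted p = 0.0536) and Mki67 at 0.011. Deviations of animals with the same number correlated at 0.0292, 0.0332, -0.319, -0.225 and 0.151, so the numbers give no pairing.

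Several differences changed sign. Sox2 was -0.00084 with library totals only, -0.0016 at a mean count of at least 50 and -0.049 to 0.062 with each animal left out. Mki67 was 0.0063 with limma-voom, 0.012 and 0.019 with limma trend at pseudocounts of 1 and 0.1, and -0.13 to 0.12 with each animal left out. Nes was 0.086 with the dentate covariate and -0.10 to 0.076 with each animal left out. Igfbpl1 was 0.21, 0.38 and 0.90 with the choroid covariate, the dentate covariate and 1 surrogate variable, and -1.80 to 0.43 with each animal left out. Adjusted for the ribosomal share, Igfbpl1 was -3.68, Mki67 -0.69, Sox2 0.28, Sox4 0.32, Sox11 0.03, Nes -0.17 and Dcx -0.49 (edgeR adjusted p = 1 for each). Top2a was -0.079 to 0.24 with each animal left out. Causes of these shifts were not tested. Counts were 5 to 22 a library for Top2a and 4 to 91 for Igfbpl1.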

Other observations

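Vessel and glial markers, which share Nes and Sox2 with the neurogenic lineage, were read from the same fit. All 9 endothelial and pericyte markers had a lower mean with RG2833, with a median log2 fold change of -0.30. EdgeR and limma-voom called 0 of the 9 and DESeq2 called 2 lower, beside 5.25% of all genes in DESeq2. In edgeR 5 of the 9 were lower at an unadjusted p under 0.05, beside 12.7% of all tested genes. Their sum was 271 to 399 CPM in untreated animals and 248 to 275 CPM in RG2833 animals. Of 7 microglial markers 1 was called, Aif1, a calcium-binding protein of microglia, which fell from 36.2 ± 12.3 to 21.7 ± 0.943 CPM (SD, n = 5 each), and the log2 fold change was -0.74 ± 0.20 (edgeR adjusted p = 0.0496). Over all tested genes 2.67% were called lower. The Aif1 call held in 2 of the 10 fits that left out 1 animal and was not made by limma-voom. It was lost with the replicate block, 1 surrogate variable, or the ribosomal RNA share, choroid plexus or dentate granule neuron score as a covariate. The Aif1 log2 fold change was -0.46 when adjusted for the ribosomal share and -0.30 with 1 surrogate variable.

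Of 10 astrocyte markers and 8 oligodendrocyte precursor markers edgeR called 0. At an unadjusted p under 0.05 there were 2 and 3, beside 24.5% of all tested genes. Limma-voom also called 0, and DESeq2 called 0 of the astrocyte markers and 2 of the precursor markers, 1 in each direction. Over all genes DESeq2 called 4.95% higher and 5.25% lower. The 3 precursor markers with the smallest p differed in sign. Pdgfra, a growth factor receptor, had a log2 fold change of -0.35 ± 0.10 (edgeR adjusted p = 0.0688), Sox10, a transcription factor of the lineage, one of 0.41 ± 0.12 (edgeR adjusted p = 0.0688) and Enpp6, a marker of newly forming oligodendrocytes, one of 0.40 ± 0.17 (edgeR adjusted p = 0.166). Of 7 markers of lateral ventricle or striatal neuroblasts edgeR, DESeq2 and limma-voom called 0. In edgeR 2 were higher at an unadjusted p under 0.05, beside 11.8% of all tested genes. The 7 summed to 73.3 to 111.5 CPM untreated and 84.2 to 110.6 CPM with RG2833. Of 7 tested pyramidal neuron markers edgeR and limma-voom called 0 and DESeq2 called 1 higher, beside 4.95% of all genes. In edgeR 1 was higher at an unadjusted p under 0.05, beside 11.8% of all tested genes, and 6 were higher in the mean. Their list summed to 640 to 1893 CPM untreated and 1152 to 2079 CPM with RG2833, with Spink8 at 0 in 6 libraries. Of 10 interneuron markers all 3 tools called 0, with 0 at an unadjusted p under 0.05 in edgeR.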
